A study of Mus musculus with 5 samples.

Results

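Motile cilia are whip-like projections that beat in a coordinated way on the multiciliated cells of the airway. Their core, the axoneme, is a ring of microtubule doublets around a central pair. Dynein motors in outer and inner rows slide the doublets, radial spokes and the nexin-dynein regulatory complex restrain and time that sliding, and assembly factors fold the dyneins in the cytoplasm before they are carried into the cilium. The genes examined here belong to the name families Dnah (dynein heavy chains), Dnaaf (dynein assembly factors), Drc (dynein regulatory complex), Rsph (radial spokes), Dnai (dynein intermediate chains) and Cfap (cilia and flagella associated proteins). Of the 54532 genes of the count table, 62 had a symbol of these families followed by a digit, and the 59 with a summed count of at least 30 over all tumours are the members. The Dnai pattern matched no symbol in the table.

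The samples were 5 mouse small cell lung cancers, neuroendocrine tumours that arose in the lung, all of the genotype written RPP, whose letters the labels do not expand. Per the labels, 2 tumours had received vehicle and 3 had received LSN, and the series names Aurora A, a kinase that acts in mitosis, as the target. The labels used here give no dose, duration or age. They do not tie the tumours to separate animals, so p-values measure only the spread between these samples. The labels describe RNA from flash-frozen lung tumour taken at necropsy, although the series text speaks of primary cells. In such bulk RNA, fewer cells of a type and less RNA per cell cannot be told apart.

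Total counts were 17439049 to 19766604 per tumour, and members took 0.0474 to 0.0953% of them. A count of 3, the floor used here, was 0.159 to 0.167 CPM (counts per 1000000 counts of the library, scaled by the TMM method of edgeR), which covers counting error only. Neuroendocrine markers, 10 genes in all, summed to 2485 CPM or more in every tumour. Markers of normal lung were also present in every tumour. The lung surfactant gene Sftpc was at 191 to 3887 CPM.

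The summed count chose the members. Just inside the limit lay Cfap221 with a summed count of 47, Cfap73 with 62 and Rsph14 with 65. Just outside lay Dnah2os, an antisense transcript, with 19, Cfap97d1 with 4 and Rsph6a with 3. All 59 members passed the edgeR filter on low counts.

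Transcription of many axoneme genes is known to depend on RFX factors, which bind an inverted repeat called the X-box, and on FOXJ1, a forkhead factor. The promoters of 4 members are printed here as background to the values that follow. Drc7, Cfap161 and Dnah10 were among the members with the smallest p-values, and Cfap298 is a member whose groups overlapped. Sequences are the 250 bases before the RefSeq start site on build GRCm38.p6, 5′ to 3′ on the strand of the gene. Capitals mark one X-box arm (GTTGCC or its reverse complement GGCAAC) or a relaxed inverted repeat, GTNNCC followed after NN by GGNNAC, searched on both strands. The repeat can contain the arm, so that the matches overlap.
Drc7, chr8:95054853-95055102, plus strand: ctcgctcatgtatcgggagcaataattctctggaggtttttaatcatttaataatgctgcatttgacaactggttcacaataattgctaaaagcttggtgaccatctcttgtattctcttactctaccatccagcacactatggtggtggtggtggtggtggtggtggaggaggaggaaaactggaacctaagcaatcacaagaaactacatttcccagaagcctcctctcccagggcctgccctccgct
Cfap161, chr7:83794840-83795089, minus strand: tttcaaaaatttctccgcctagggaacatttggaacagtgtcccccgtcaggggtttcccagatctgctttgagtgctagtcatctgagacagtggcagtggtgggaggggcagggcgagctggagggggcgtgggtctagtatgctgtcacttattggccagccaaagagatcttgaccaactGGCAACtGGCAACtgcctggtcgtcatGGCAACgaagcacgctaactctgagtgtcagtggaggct
Dnah10, chr5:124724835-124725084, plus strand: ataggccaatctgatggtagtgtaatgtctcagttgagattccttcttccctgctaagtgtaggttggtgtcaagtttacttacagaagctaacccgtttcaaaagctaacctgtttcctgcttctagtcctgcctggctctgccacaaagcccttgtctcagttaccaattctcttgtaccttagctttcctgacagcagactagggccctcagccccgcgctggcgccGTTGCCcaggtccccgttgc
Cfap298, chr16:90934850-90935099, minus strand: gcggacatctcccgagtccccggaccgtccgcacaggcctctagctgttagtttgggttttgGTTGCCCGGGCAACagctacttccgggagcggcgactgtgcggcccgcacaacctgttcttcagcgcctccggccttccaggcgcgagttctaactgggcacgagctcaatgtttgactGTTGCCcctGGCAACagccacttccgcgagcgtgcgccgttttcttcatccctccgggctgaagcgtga
Cfap161 held 3 arms, Dnah10 held 1, and Cfap298 held 4 arms and 1 relaxed repeat. Drc7 held neither, which says only that these letters are not in this window. The printed promoters are examples and do not stand for their groups. Cfap36, Cfap43 and Rsph9, for instance, also had overlapping groups, and their promoters held neither.

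RefSeq promoters were found for 47 of the 59 members, 51 promoters in all. The arm occurred in 16 of them, 31.4%, against 10.4% of all 32851 promoters in the table. The relaxed repeat occurred in 5, 9.8%, against 1.57%. The forkhead motif TGTTTAC, on either strand, occurred in 3, 5.88%, against 3.17%. Among members with every LSN tumour below both vehicle tumours, 24.1% of 29 promoters held the arm, and among members with overlapping groups 40.9% of 22 did. These were 7 and 9 promoters of 7 and 8 genes, and by gene the shares were 26.9% and 38.1%. The 9 include overlapping windows of Cfap74 that share an arm. For the relaxed repeat the shares were 10.3% and 9.09%, and for the forkhead motif 0% and 13.6%. These matches are descriptions of letters, not of binding.

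Most members had their highest level in a vehicle tumour. The log2 fold change of LSN against vehicle was below 0 for 49 of 59 members, against 46.8% of the 17906 genes tested. Its median was -1.86 over the members and 0.034 over all genes tested. Every LSN tumour was below both vehicle tumours for 36 members, against 10.4% of all genes, and every LSN tumour was above both for 0 members, against 8.48%. The other 23 members had overlapping groups. The summed count can be reached through the vehicle tumours alone, as Rsph14 (41 and 19 counts) and Cfap221 (28 and 13) did. Both are among the 36, so these counts are descriptions without a test. The shares over all genes apply also to the counts by role below.

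By the quasi-likelihood test of edgeR, 0 members passed an adjusted p of 0.05, as did 0% of all genes. At an unadjusted p under 0.05 there were 26 members, all lower with LSN, where 3.21% of all genes were lower and 1.06% higher. limma-voom also called 0 members, with 32 at an unadjusted p under 0.05, where 4.79% of all genes were. DESeq2, which the submitters used, called 9 members, all lower with LSN, where it called 0.464% of genes lower and 0.0755% higher. DESeq2 called 1 member lower without vehicle replicate 1 (0.298% of all genes) and 2 without vehicle replicate 2 (0.126%). Leaving out LSN replicate 1 gave 13 members (2.51%), LSN replicate 2 gave 6 (0.425%) and LSN replicate 3 gave 3 (0.195%). With 2 against 3 tumours, 0.1 is the smallest p of an exact permutation test.

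**Figure D1:**
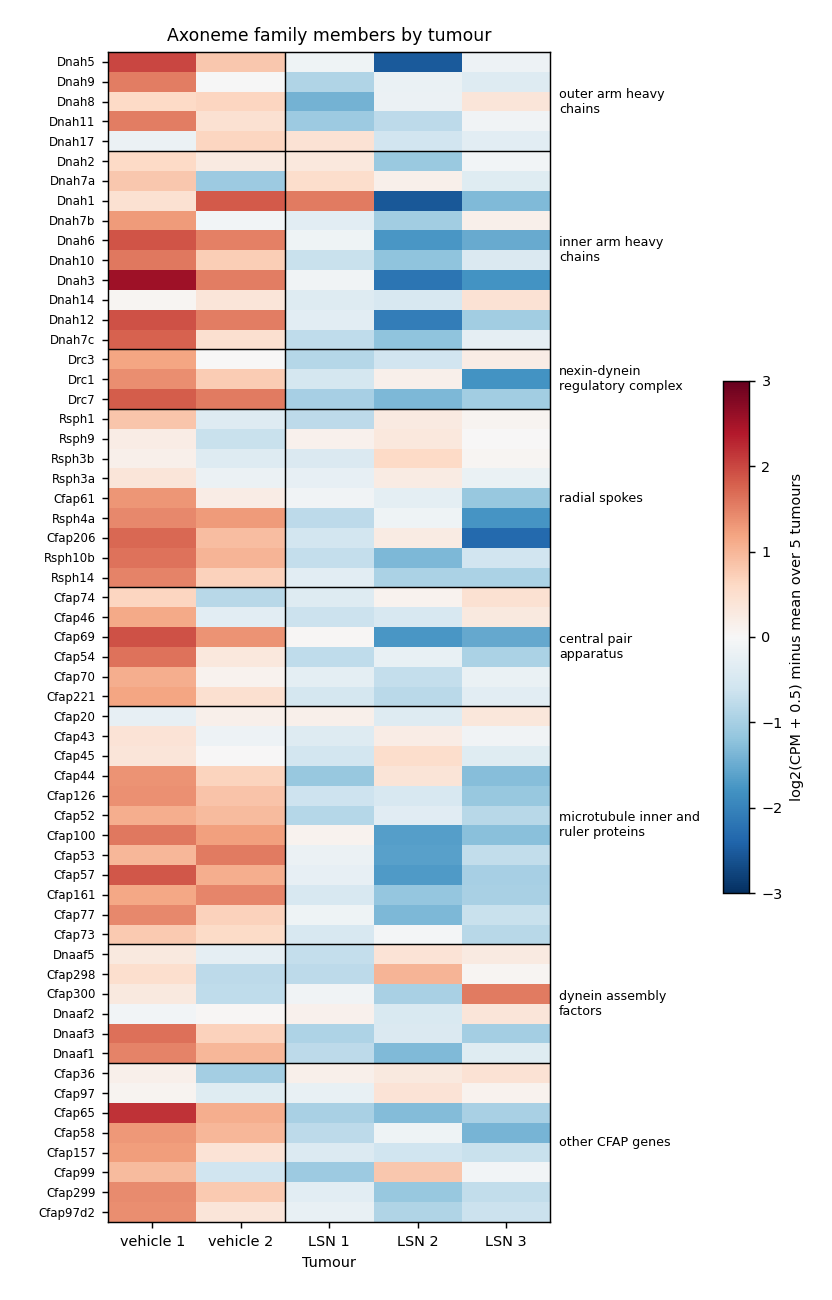
Level of each of the 59 members (rows, grouped by role) in each of the 5 tumours (columns), as log2(CPM + 0.5) minus the mean of that gene over the 5 tumours. Most rows are red in vehicle tumour 1, which held the highest value of 43 members, and pale or blue in the LSN tumours.

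The tumours of one group also differed from one another. Vehicle replicate 1 was above vehicle replicate 2 for 51 of 59 members, with a median ratio of 1.77. It held the highest value of 43 members, where it held that of 16% of all genes. Vehicle replicate 2 was highest for 5 members (21.4% of all genes) and lowest for 5 (21.1%). LSN replicate 1 was highest for 0 members (17.4%) and lowest for 14 (17.4%). LSN replicate 2 was lowest for 29 members (24.7%) and highest for 6 (24.8%), and it had counts of 0 for 5 members. LSN replicate 3 was lowest for 11 members (20.4%) and highest for 5 (20.4%). LSN replicates 1, 2 and 3 were below both vehicle tumours for 48, 46 and 41 members, where 32.2%, 36.8% and 34.4% of all genes were.

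Outer arm heavy chains are the motors that give the cilium most of its beating force, and 4 of the 5 had every LSN tumour below both vehicle tumours. Dnah5, a core outer arm motor, had 34.1 and 14.6 CPM with vehicle and 7.34, 1.02 and 7.25 CPM with LSN. Dnah9, its partner motor in the far part of the cilium, had 30.3 and 10.05 CPM with vehicle and 5.19, 8.74 and 7.62 CPM with LSN. In both genes the groups did not overlap, but vehicle replicate 1 stood well above vehicle replicate 2. The log2 fold changes were -2.22 ± 0.91 (SE) for Dnah5 and -1.49 ± 0.59 (SE) for Dnah9. Without vehicle replicate 1 they were -1.48 and -0.47. Dnah11, the partner of DNAH5 in the near part of the cilium, had 9.73 and 4.35 CPM with vehicle and 1.16, 1.55 and 2.81 CPM with LSN. Its exons overlap 642 bases of Cdca7l, an opposite-strand gene with 3972 summed counts against 362 for Dnah11. Dnah8, best known from the sperm tail, had 12.6 and 12.9 CPM with vehicle and 2.71, 7.13 and 10.5 CPM with LSN, so that LSN replicate 3 came close to the vehicle tumours. Dnah17, also best known from sperm, overlapped between groups at 1.02 to 3.07 CPM. Of 8 male germ cell markers, 3 to 5 were at 0 counts in each tumour, Tnp1 and Akap4 in all 5, and the summed level was 0.476 to 1.24 CPM.

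Inner arm heavy chains shape the bend of the cilium, and all 10 had a log2 fold change below 0, with a median of -1.64. Dnah6 had 17.5 and 13.3 CPM with vehicle and 3.98, 0.965 and 1.22 CPM with LSN. Dnah10 had 14.3 and 7.76 CPM with vehicle and 2.65, 1.66 and 3.18 CPM with LSN. The log2 fold changes by edgeR were -2.90 ± 0.77 (SE) for Dnah6 and -2.14 ± 0.57 (SE) for Dnah10, and DESeq2 called both lower (adjusted p = 0.0359 and 0.0407). Dnah12 had 8.39 and 6.31 CPM with vehicle and 1.38, 0.0536 and 0.635 CPM with LSN. Dnah3 had 239 and 110 counts with vehicle and 29, 0 and 3 with LSN. Its exons overlap 1506 bases of Lyrm1, an opposite-strand gene with 273 summed counts against 381 for Dnah3. LSN replicate 2 was the lowest tumour for 9 of the 10 inner arm genes.

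The inner arm genes with the highest mean CPM over all 5 tumours overlapped between groups. A low level with LSN lowers that mean. By the vehicle mean Dnah6, which did not overlap, was at 15.4 CPM, above Dnah1 (15.1 CPM) and Dnah7a (11.6 CPM). Dnah2 had 20.4 and 16.02 CPM with vehicle and 16.7, 5.84 and 12.5 CPM with LSN. Dnah1 had 8.17 and 22.1 CPM with vehicle and 18.1, 0.590 and 2.01 CPM with LSN. Dnah1 was thus as high in LSN replicate 1 as in the vehicle tumours and lowest in the other LSN tumours. Dnah7a had 18.6 and 4.58 CPM with vehicle and 15.1, 11.5 and 7.94 CPM with LSN, and its log2 fold change of -0.0045 changed sign with RLE scaling. Dnah7b had 16.7 and 6.14 CPM with vehicle and 5.19, 2.89 and 7.36 CPM with LSN. Dnah7c alone of these copies did not overlap. Dnah7c had 6.78 and 2.51 CPM with vehicle and 0.773, 0.429 and 1.27 CPM with LSN. Dnah7a, Dnah7b and Dnah7c are close copies that shared 12.2 to 17.2% of their 100-base words, so their single values are uncertain. Dnah14 overlapped between groups, and 440 bases of its exons overlap those of Lbr, a gene with 13053 summed counts on the opposite strand against 382 for Dnah14.

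The nexin-dynein regulatory complex links neighbouring doublets, and its member Drc7 had the smallest DESeq2 p of all members. Drc7 (chromosome 8, 95055103 to 95078141) had 8.87 and 7.31 CPM with vehicle and 0.828, 0.536 and 0.794 CPM with LSN. The means were 8.09 ± 1.10 CPM (SD, n = 2) and 0.719 ± 0.160 CPM (SD, n = 3), and the tumours of each group lay close together. The edgeR log2 fold change of Drc7 was -3.48 ± 0.56 (SE; unadjusted p = 0.00113, adjusted p = 0.9996). DESeq2 gave Drc7 an adjusted p of 9.32e-07. DESeq2 also called Drc7 with any 1 of the 5 tumours left out, with adjusted p from 6.75e-05 to 0.0429. Drc1, a scaffold of the complex, had 14.2 and 9.04 CPM with vehicle and 3.42, 5.79 and 1.11 CPM with LSN. Drc3 had 25.0 and 10.9 CPM with vehicle and 5.74, 7.02 and 12.7 CPM with LSN, so that its groups overlapped.

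**Figure D2:**
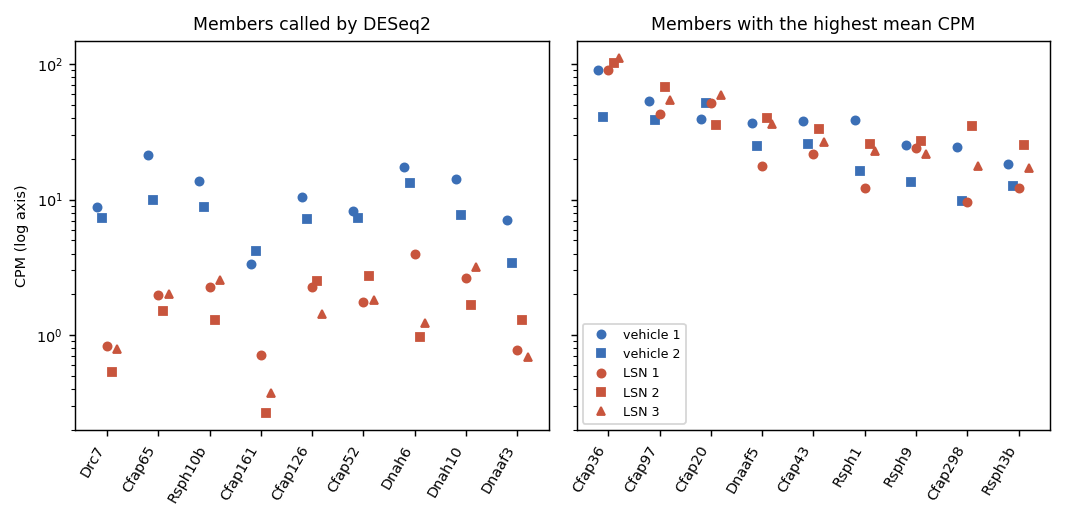
CPM (log axis) of the 9 members called by DESeq2 (left) and of the 9 members with the highest mean CPM (right), 1 point per tumour, blue for vehicle and red for LSN. On the left every LSN tumour lies below both vehicle tumours, and on the right the groups overlap for all 9 genes.

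Radial spokes reach from the doublets to the central pair, and 5 of 9 genes had every LSN tumour below both vehicle tumours. Rsph10b had 13.6 and 8.76 CPM with vehicle and 2.26, 1.29 and 2.54 CPM with LSN (DESeq2, adjusted p = 0.00499). Rsph10b shares 85 exon bases with the more abundant Pms2 on the same strand. Rsph4a, a component of the spoke head, had 12.4 and 11.1 CPM with vehicle and 2.26, 3.86 and 0.900 CPM with LSN. Rsph14 had 41 and 19 counts with vehicle and 5, 0 and 0 with LSN. Cfap206, which sits at the spoke base, had 13.9 and 7.76 CPM with vehicle and 2.49, 4.66 and 0.371 CPM with LSN. These genes, and Cfap61 at the base of a spoke, had no overlap between groups. The median log2 fold change of the 9 spoke genes was -1.42.

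Other spoke genes overlapped between groups. Rsph1, a spoke head protein, had 38.6 and 16.4 CPM with vehicle and 12.2, 25.8 and 22.9 CPM with LSN. Rsph9, its neighbour in the spoke head, had 25.2 and 13.4 CPM with vehicle and 23.9, 27.1 and 21.7 CPM with LSN. LSN replicate 2 had more Rsph9 than either vehicle tumour, while its Rsph4a was well below both. Rsph3a and Rsph3b, the near-identical genes of a spoke stalk protein, lay between 11.1 and 25.2 CPM in all tumours with overlapping groups. They shared 60.1 to 60.6% of their 100-base words, so that reads may have been split between them.

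Proteins of the central pair apparatus steer the radial spokes, and 4 of the 6 genes had no overlap between groups. Cfap69 had 12.6 and 8.26 CPM with vehicle and 3.04, 0.536 and 0.688 CPM with LSN. Cfap54 had 11.1 and 4.13 CPM with vehicle and 1.71, 2.73 and 1.43 CPM with LSN. Cfap70 had 7.15 and 3.35 CPM with vehicle and 2.43, 1.66 and 2.59 CPM with LSN. All 6 genes had their highest value in vehicle replicate 1. Cfap221 had 28 and 13 counts with vehicle and 2, 0 and 4 with LSN. Cfap74 and Cfap46, with the highest mean CPM over all tumours, did not separate. By the vehicle mean, however, Cfap69 (10.4 CPM) lay above Cfap46 (10.1 CPM). Cfap74 had 18.7 and 6.42 CPM with vehicle and 8.95, 12.7 and 16.2 CPM with LSN. Its log2 fold change of 0.0054 changed sign with total counts.

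Microtubule inner proteins line the inside of the doublets, and ruler and tether proteins set where the dyneins sit. Of these 12 genes, 9 had every LSN tumour below both vehicle tumours. Cfap161 had 3.33 and 4.19 CPM with vehicle and 0.718, 0.268 and 0.371 CPM with LSN (DESeq2, adjusted p = 0.0118). Cfap126 had 10.5 and 7.201 CPM with vehicle and 2.26, 2.52 and 1.43 CPM with LSN (DESeq2, adjusted p = 0.0243). Cfap52 had 8.28 and 7.37 CPM with vehicle and 1.77, 2.73 and 1.80 CPM with LSN (DESeq2, adjusted p = 0.0286). In all 3 genes the tumours of a group lay close together, and the log2 fold changes were -3.04 ± 0.68, -2.09 ± 0.55 and -1.89 ± 0.53 (SE). Exons of Cfap52 overlap an opposite-strand gene with a similar summed count, 393 against 403, and the kit does not keep the strand. Cfap100, a protein of the dynein docking region, had 8.71 and 6.70 CPM with vehicle and 2.82, 0.482 and 0.794 CPM with LSN. Cfap53, an inner protein that also anchors outer arms, had 5.27 and 7.93 CPM with vehicle and 2.04, 0.429 and 1.22 CPM with LSN. Cfap77 had 4.41 and 2.40 CPM with vehicle and 1.16, 0.214 and 0.635 CPM with LSN. In these genes LSN replicate 2 was the lowest tumour. Cfap57 and Cfap73, lower in level, did not overlap between groups either.

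Within the same class Cfap20, Cfap43 and Cfap45 overlapped between groups. Cfap20, an inner junction protein, had 39.6 and 51.7 CPM with vehicle and 51.8, 35.7 and 58.9 CPM with LSN. Its highest tumour was 1.65 times its lowest. Cfap43, a tether protein, had 38.0 and 25.6 CPM with vehicle and 21.7, 33.3 and 26.4 CPM with LSN. Its usual partner Cfap44 had 12.5 and 7.59 CPM with vehicle and 1.82, 6.11 and 1.59 CPM with LSN, below both vehicle tumours in each case.

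Dynein assembly factors act in the cytoplasm, and 4 of the 6 genes overlapped between groups. Dnaaf5 had 36.8 and 24.8 CPM with vehicle and 17.8, 39.9 and 36.2 CPM with LSN. Cfap298 had 24.4 and 9.77 CPM with vehicle and 9.66, 34.9 and 17.8 CPM with LSN. Cfap300 had 16.1 and 7.54 CPM with vehicle and 12.1, 6.38 and 39.3 CPM with LSN. The highest tumour was LSN replicate 2 for Dnaaf5 and Cfap298 and LSN replicate 3 for Cfap300. Dnaaf2 was at 3.32 to 6.19 CPM with overlapping groups. Dnaaf3 and Dnaaf1 did not overlap. Dnaaf3 had 7.05 and 3.41 CPM with vehicle and 0.773, 1.29 and 0.688 CPM with LSN (DESeq2, adjusted p = 0.0480). Dnaaf1 had 3.76 and 2.57 CPM with vehicle and 0.387, 0.107 and 0.688 CPM with LSN. Exons of Dnaaf1 overlap Taf1c on the opposite strand, and exons of Dnaaf3 overlap Tnni3 on the same strand, both with more counts than the member.

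Cfap36 and Cfap97 had the highest mean CPM over the 5 tumours and lie in none of the groups above. Cfap36 had 90.6 and 40.4 CPM with vehicle and 90.5, 101 and 110 CPM with LSN, and Cfap97 lay between 39.0 and 67.4 CPM in all tumours. Cfap65, known from the sperm tail, had 21.5 and 9.99 CPM with vehicle and 1.99, 1.501 and 2.01 CPM with LSN. Its log2 fold change was -3.10 ± 0.55 (SE; DESeq2, adjusted p = 9.31e-05). Cfap65 was called by DESeq2 in 4 of the 5 fits with a tumour left out, the exception being that without vehicle replicate 1. Cfap58, Cfap157, Cfap299 and Cfap97d2 also had every LSN tumour below both vehicle tumours, with log2 fold changes of -1.86 to -3.37. Cfap99 overlapped, with 42 and 8 counts with vehicle and 3, 37 and 16 with LSN.

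**Figure D3:**
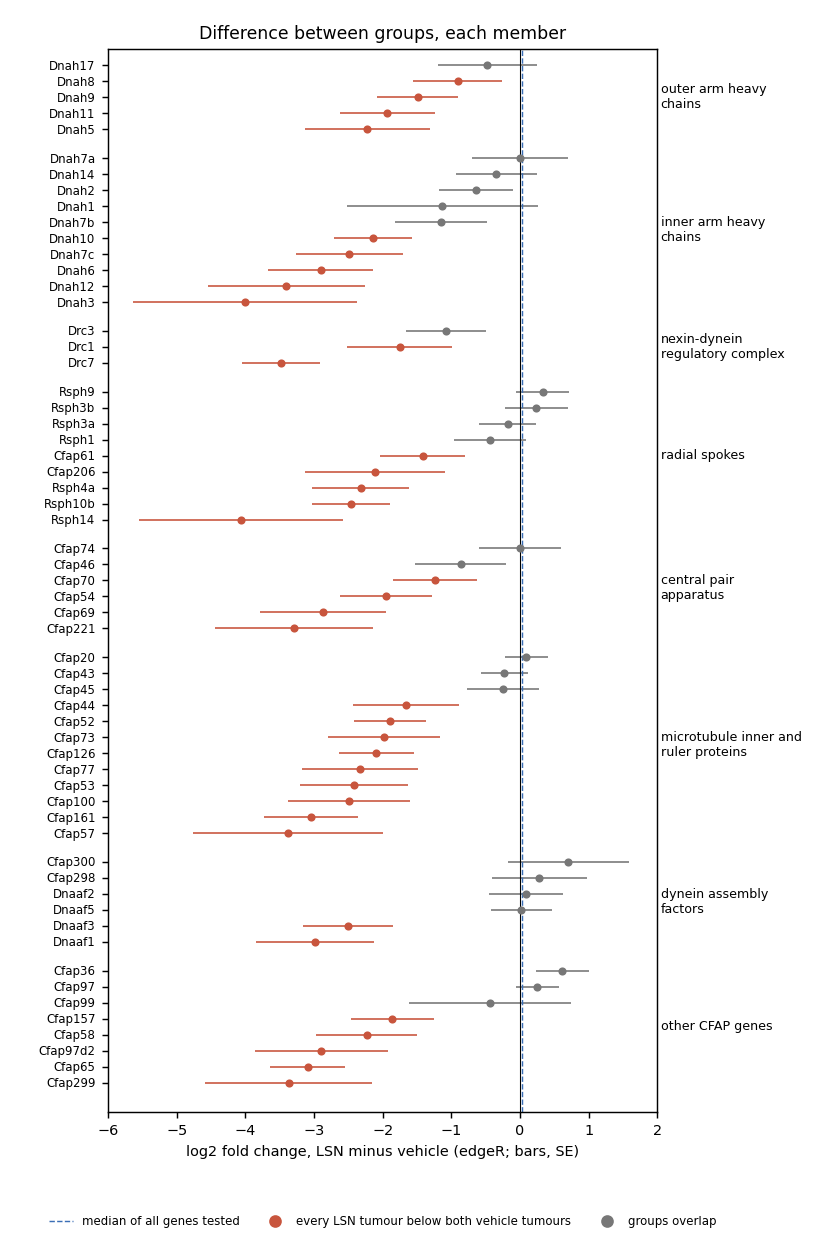
Log2 fold change of LSN minus vehicle (x axis; points, edgeR estimate; bars, SE) for each member, grouped by role. Red points mark the 36 members with every LSN tumour below both vehicle tumours, grey points the 23 with overlapping groups, and the dashed line the median of all genes tested, 0.034.

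Members were also described by level. The mean over all tumours rests on the same counts that chose the members, and a low level with LSN lowers it, so the split has no test. Among the 15 members with the highest mean CPM (12.4 to 86.6 CPM), a number chosen after the values were seen, 13 overlapped and the median log2 fold change was 0.022. Among the other 44 members, 34 had every LSN tumour below both vehicle tumours and the median was -2.13. Ranked by the vehicle mean alone, 11 of the first 15 overlapped with a median of -0.23, and 12 of the other 44 overlapped with a median of -2.04. Summed over the abundant 15, levels were 502 and 299.9 CPM with vehicle and 344, 441 and 460 CPM with LSN. Summed over the other 44, they were 411 and 267 CPM with vehicle and 124, 106 and 105 CPM with LSN. The sum over all members, 913 and 567 CPM with vehicle and 468, 547 and 565 CPM with LSN, is made up largely of the abundant members.

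Per kilobase of the gene length given in the table, levels across the 5 tumours were highest for Cfap36 (31.5 CPM per kilobase), Rsph1 (19.9), Rsph9 (13.9), Cfap298 (12.1) and Cfap20 (10.7). All 5 overlapped between groups. Heavy chains, the longest members, were at the low end, at 0.118 CPM per kilobase for Dnah17 and 0.955 for Dnah2.

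**Figure D4:**
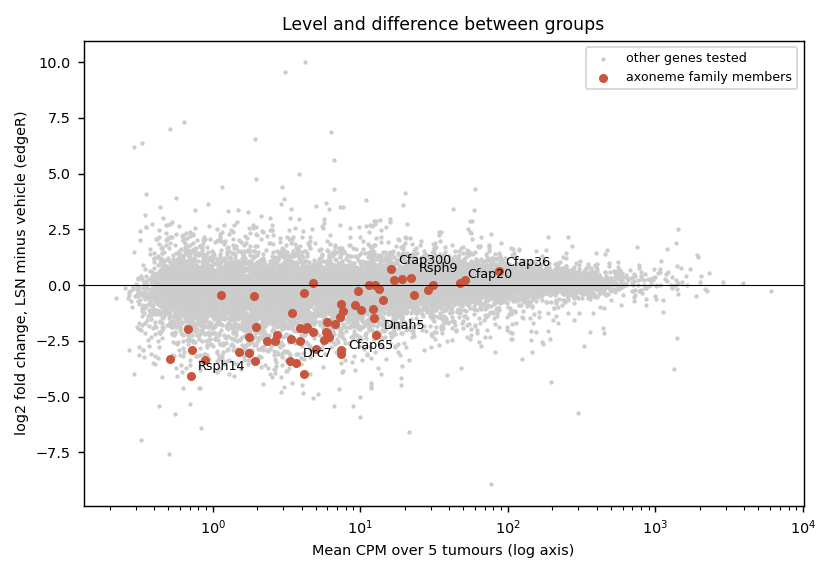
Log2 fold change of LSN minus vehicle (y axis, edgeR) against mean CPM over the 5 tumours (x axis, log axis) for the 59 members (red) and the other genes tested (grey). Of the members, 49 lie below 0, and Cfap36, with the highest mean CPM, lies above 0.

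Further genes of the motile axoneme, listed by function under other names, showed a similar split. Of 49 genes tested out of 50 listed, 46 had a log2 fold change below 0, against 46.8% of all genes. Every LSN tumour was below both vehicle tumours for 26 (10.4% of all genes) and above both for 0 (8.48%). The median of the list was -1.13. DESeq2 called 4 lower and 0 higher, where it called 0.464% and 0.0755% of all genes. edgeR called 0, with 11 lower at an unadjusted p under 0.05, where 3.21% of all genes were. Dynlrb2, a dynein light chain, had 11.6 and 7.65 CPM with vehicle and 1.33, 1.02 and 1.54 CPM with LSN (DESeq2, adjusted p = 7.86e-05). Dnali1, an inner arm light intermediate chain, had 11.1 and 7.87 CPM with vehicle and 1.38, 1.98 and 2.12 CPM with LSN (DESeq2, adjusted p = 0.00184). The abundant Mns1 was at 153 to 247 CPM with overlapping groups. Dynein intermediate chains stood in the table under the older symbols Dnaic1 and Dnaic2, which the name rule does not take. Dnaic2 had 11.6 and 8.43 CPM with vehicle and 4.69, 0.750 and 0.953 CPM with LSN. Dnaic1 had its highest value in LSN replicate 2, at 18.3 CPM, and 1.16 to 10.5 CPM in the other tumours.

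Genes that build cilia in general, including the single primary cilium, overlapped between groups with few exceptions. The 30 intraflagellar transport genes, which carry cargo along the axoneme, had a median log2 fold change of 0.079, and the 12 genes of the Bardet-Biedl group, which traffic membrane proteins, one of 0.033. Both medians were below 0 with total counts (-0.0072 and -0.061) and without vehicle replicate 2 (-0.16 and -0.17). Of the 30 and 12 genes, 1 each had every LSN tumour above both vehicle tumours, against 8.48% of all genes. The number with every LSN tumour below was 0 in both lists, against 10.4%. edgeR and DESeq2 called 0 genes of either list, and 0 reached an unadjusted p under 0.05 in edgeR.

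The listed regulators of motile ciliogenesis, not all of them transcription factors, overlapped between groups as well. Foxj1 had 68.5 and 48.5 CPM with vehicle and 20.1, 55.3 and 52.0 CPM with LSN. Rfx2 was at 11.6 to 25.3 CPM and Rfx3 at 62.7 to 146 CPM, and LSN tumours held the highest value of both. Mcidas and Ccno, regulators of centriole amplification, were at 11.1 to 23.8 CPM and 7.46 to 18.8 CPM. The groups overlapped for all 15 tested regulators of 16 listed, the median log2 fold change was 0.092, and edgeR and DESeq2 called 0 of them, with 0 at an unadjusted p under 0.05 in edgeR. LSN replicate 1 had Foxj1 below both vehicle tumours and was below both for 48 members. LSN replicates 2 and 3 had Foxj1 between the vehicle tumours and were below both for 46 and 41 members. A part of Foxj1 in the difference was not tested.

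**Figure D5:**
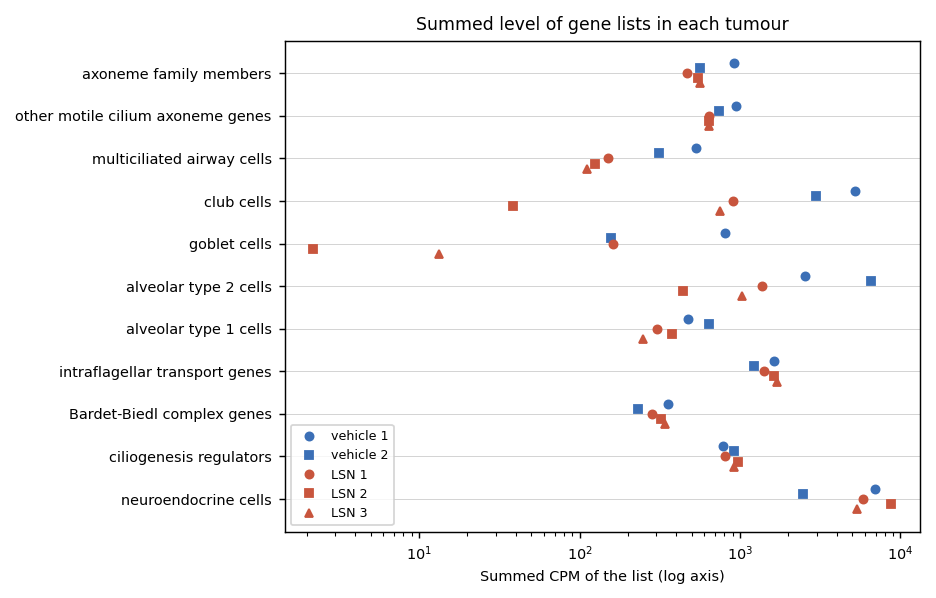
Summed CPM (x axis, log axis) of the members and of 10 other gene lists in each tumour, blue for vehicle and red for LSN. Sums of multiciliated, club and alveolar type 2 cell markers lie lower in all 3 LSN tumours, whereas intraflagellar transport, Bardet-Biedl and regulator lists overlap.

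Markers of normal lung epithelium differed in the same direction as the members. Of 12 multiciliated cell markers, 10 had every LSN tumour below both vehicle tumours, against 10.4% of all genes. Their summed level was 529 and 314 CPM with vehicle and 149, 126 and 111 CPM with LSN. That list shares Dynlrb2 with the axoneme list and Foxj1 with the regulators. Its defining marker Sntn was at 0 counts in LSN replicate 2 only, and Ccdc153 likewise. Club cell markers summed to 5173 and 2964 CPM with vehicle and 899.7, 38.3 and 752 CPM with LSN, with 6 of 8 separate. Of the 752 CPM in LSN replicate 3, 396 came from Aldh1a7, which was at 179 and 19.6 CPM with vehicle. Goblet cell markers summed to 811 and 157 CPM with vehicle and 163, 2.20 and 13.3 CPM with LSN, with 3 of 6 separate and Tff2 and Muc5ac at 0 counts in LSN replicate 2. Alveolar type 2 markers summed to 2528 and 6590 CPM with vehicle and 1377, 441 and 1028 CPM with LSN, with 7 of 8 separate. These airway and alveolar cells belong to the normal lung that surrounds such tumours. Alveolar type 1 markers summed to 475 and 640 CPM with vehicle and 303, 375 and 249 CPM with LSN, with 4 of 8 separate. Of the 375 CPM in LSN replicate 2, Igfbp2 made up 287, and that tumour was lowest for 5 of the 8 markers. The part of normal lung tissue in the difference was not tested.

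Multiciliated, club and goblet markers ordered the vehicle tumours as most members did, but so did lists not tied to the airway. Multiciliated, club and goblet sums were all higher in vehicle replicate 1, which held the highest value of 10 of 12 multiciliated markers and of 43 of 59 members. LSN replicate 2 held the lowest value of 7 of the 12 multiciliated markers and of 29 members. Intraflagellar transport sums (1628 and 1228 CPM with vehicle) and Bardet-Biedl sums (358 and 233 CPM) were also higher in vehicle replicate 1. So were the mesothelial and neuroendocrine sums given below. The alveolar type 2 sum had the other order and was highest in vehicle replicate 2. Alveolar type 1, regulator, basal and ependymal sums were also higher in vehicle replicate 2 than in vehicle replicate 1. The order was thus not particular to airway markers, and its cause was not tested. Basal cell markers summed to 18.9 and 28.2 CPM with vehicle and 32.8, 3.97 and 11.0 CPM with LSN, and 0 of 6 separated the groups downward. Mesothelial markers summed to 68.8 and 62.1 CPM with vehicle and 58.8, 34.0 and 31.7 CPM with LSN, and ependymal and choroid plexus markers to 84.8 and 109 CPM with vehicle and 70.9, 27.3 and 74.7 CPM with LSN. Neuroendocrine markers summed to 6916 and 2485 CPM with vehicle and 5824, 8793 and 5396 CPM with LSN.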

How the data were processed

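RNA of 5 tumours was extracted with RNeasy columns, made into non-stranded NEBNext Ultra II libraries and sequenced as paired ends on a NovaSeq, per the labels' protocols. Reads were aligned with STAR to mm10 and compared with DESeq2 by the authors, per the labels' protocols. The version of STAR and how reads were counted are not stated in the labels used here. The deposited table holds raw counts per gene for each tumour, with gene symbol, position and gene length as the authors' values.

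Groups came from the labels (2 vehicle, 3 LSN), and replicate numbers follow the accession order. Genes were filtered with filterByExpr (minimum count 10, minimum total 15), scaled by TMM and tested with the quasi-likelihood test of edgeR 4.0.16 (R 4.3.3), robust setting, 3 residual degrees of freedom, two-sided, with Benjamini-Hochberg adjustment over all 17906 genes tested and a threshold of 0.05. The SE of a log2 fold change was its size divided by the square root of F. DESeq2 1.42.0, limma-voom (limma 3.58.1), total-count and RLE scaling, a filter of 1 CPM in 2 tumours, no filter, other limits on the summed count and leaving out each tumour were alternatives. The calculations were tested on simulated data with set fold changes in well-counted genes and the same set spread for all genes. That checks the code and does not measure the power of the tests in these tumours.

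The members and gene lists were chosen with earlier results of these data known. Genes were named by rule: the 3 most abundant of each role, those with an unadjusted edgeR p or a DESeq2 adjusted p under 0.05, the most abundant with an unusual highest tumour, those nearest the summed-count limit and up to 4 of each other list. Genes outside it were named after their values were seen. Exon overlaps and shared 100-base words came from GENCODE M21 on GRCm38, with all 59 member IDs matched. By that annotation 29 members have exons that overlap another gene, 27 of them on the opposite strand, and for 12 the other gene has more counts. Promoters came from RefSeq, GRCm38.p6.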

Additional observations from a re-analysis of the deposited data

How the results depend on the processing

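Of 767 alternative values, 711 kept their direction, their side of the threshold or their size. DESeq2 called 100 genes and 9 members where edgeR called 0 of both, and with any 1 tumour left out edgeR still called 0 genes. With 1 tumour left out, DESeq2 called 27 to 451 genes lower and 1 to 13 members lower. The members' median log2 fold change then lay from -2.07 to -1.28, the latter without vehicle replicate 1. It was -2.10 over the 30 members whose exons overlap no other gene, a choice made after seeing the data along with the DESeq2 fits that leave out a tumour, and -1.58 with a summed count of 100 or more. The number of members with every LSN tumour below both vehicle tumours was 34 with the filter of 1 CPM and 38 to 46 with a tumour left out, which removes a condition from the comparison. Where a vehicle tumour is left out, the lone one is assumed to vary like the other group.

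Without a tumour Dnah9 lay from -2.07 to -0.47 and Dnah5 from -2.71 to -1.48. The sign changed for Cfap74 with the 1 CPM filter (-0.0028) and total counts (-0.094), for Dnaaf5 with limma-voom (-0.033) and total counts (-0.081), and for Dnah7a with DESeq2 (0.011), limma-voom (0.26) and RLE scaling (0.010). With a tumour left out, log2 fold changes spanned 0 for Cfap20 (-0.076 to 0.30), Cfap298 (-0.32 to 1.10), Cfap300 (-0.35 to 1.36), Cfap43 (-0.48 to 0.095), Cfap46 (-1.44 to 0.12), Cfap74 (-0.57 to 0.98), Dnaaf5 (-0.23 to 0.34), Dnah7a (-0.68 to 1.34), Rsph1 (-0.92 to 0.32), Rsph3b (-0.078 to 0.54) and Rsph9 (-0.054 to 0.86).

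Median log2 fold changes of other lists, with a tumour left out, ranged as follows: intraflagellar transport (-0.16 to 0.37), ciliogenesis regulators (-0.00033 to 0.11), Bardet-Biedl genes (-0.17 to 0.40), club cells (-4.08 to -1.84), alveolar type 2 cells (-2.995 to -1.39), alveolar type 1 cells (-1.77 to -0.89), basal cells (-1.09 to 0.044), ependyma (-1.38 to -0.15), goblet cells (-5.92 to -1.39), mesothelium (-1.05 to -0.45), multiciliated cells (-2.94 to -1.60), neuroendocrine cells (0.26 to 1.68) and other motile axoneme genes (-1.36 to -0.65). The 1 CPM filter gave -0.18 for basal cells, and limma-voom gave -0.72 for ependyma and -4.88 for goblet cells. The cause was not tested. No paired analysis was possible because the tumour numbers in the labels all differ and the replicate numbers only follow the accession order. The tumour number of vehicle replicate 1 lies next to those of the LSN tumours, whereas that of vehicle replicate 2 lies apart. Whether this bears on the values was not tested. A count of 3, 0.159 to 0.167 CPM, limits what can be said of the least abundant members in the LSN tumours.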

Other observations

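Some motile cilium genes had their highest level in an LSN tumour, against the direction of most members. Efcab1, a calcium-binding protein of the axoneme, had 61.7 and 12.002 CPM with vehicle and 31.3, 152 and 49.3 CPM with LSN. Fam183b had 13.4 and 4.58 CPM with vehicle and 14.4, 23.8 and 6.78 CPM with LSN. LSN replicate 2 was highest for both, and it was also lowest in the club cell marker sum and had 5 members at 0 counts. Rfx4, a factor of the family that binds the X-box, was at 48.6 CPM in LSN replicate 2 and at 0 counts in LSN replicate 3. All 3 were picked once their values were known.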
